A study of Mus musculus with 6 samples.

Results

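Cells of the mouse mammary carcinoma line 4T1 that carried the short hairpin RNA named shRNA3 were compared directly with 4T1 cells that carried the hairpin named shRNA1. Both hairpins were directed against the same long noncoding RNA, AU021063, so the comparison asks where 2 knockdowns of 1 target left the cells in different states. It rests on 4 of the 6 RNA libraries of the series, 2 for each hairpin, and on 11079 of 24346 gene symbols, those with a mean of at least 1 FPKM (fragments scaled by transcript length and by the mapped fragments of a library) over the 6 libraries. The remaining 2 libraries, WT, came from mock-transfected 4T1 cells and serve only as the level from which either hairpin departs. All libraries share the line and the library kit. The labels name no non-targeting hairpin and give neither the hairpin sequences nor whether a culture was 1 clone, and do not state whether a group's libraries are separate cultures. The p-values therefore measure only how far these libraries spread, possibly for technical reasons. Around the limit of 1 FPKM, Jrk with a mean of 1.001 FPKM was kept and Myo7a with 0.999 FPKM was not.

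A short hairpin RNA is cut by the cell into a small interfering RNA that guides the Argonaute complex to transcripts that pair with it. Full pairing leads to cleavage of the intended target, while pairing over the short seed can lower other transcripts, and different hairpins have different seeds. 4T1 cells secrete myeloid growth factors, S100 proteins and matrix proteases, and the MAP kinase ERK drives a set of early genes in them, among them EGR1, FOS and the dual-specificity phosphatases that switch the kinase off.

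The libraries were alike in depth and precision. Their values summed to between 560862 and 604022 FPKM, and low values put the relative depth at 86.8% to 105% of WT replicate 1. Above a mean of 10 FPKM, the median gap between both libraries was 4.47% for WT, 4.40% for shRNA1 and 4.32% for shRNA3. The carcinoma markers Krt8, Krt18, Krt19, Krt7, Epcam and Cdh1 passed the filter, and the marker list with Krt14 and Krt5 summed to between 747.3 and 1110 FPKM per library. Lymphocyte markers summed to at most 0.115 FPKM, and 5 of the 8 were at 0 in every library. Endothelial markers summed to between 9.56 and 11.8 FPKM, fibroblast markers to between 105.9 and 113.7 FPKM and macrophage markers to between 27.8 and 47.3 FPKM. Their part in the results was not tested.

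The target itself did not separate the hairpins. AU021063 (ENSMUSG00000115944.1), a lincRNA gene on the plus strand at chr15:101221247-101222155 of mm10, was at 1.04 and 0.572 FPKM in the shRNA1 libraries. In the shRNA3 libraries it was at 0.785 and 0 FPKM, against 1.82 and 1.67 FPKM in WT. The hairpin groups overlapped, with shRNA3 replicate 1 between the libraries of shRNA1. These values stand for 6 and 3 fragments with shRNA1 and 5 and 0 with shRNA3. At these depths the rate with shRNA3 was 51.8% of that with shRNA1 (95% exact binomial interval 13.6% to 172%, exact p = 0.289, two-sided). The count of 0 allows up to 3 fragments, or 0.555 FPKM, and both the interval and this limit cover counting error only. An exact permutation test over the libraries gave p = 0.667, where 2 against 2 libraries cannot go below 0.333. A difference in knockdown between the hairpins was thus not detectable at this depth. AU021063 averaged 0.983 FPKM over all libraries and did not enter the fit across genes.

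Away from the target the hairpins differed widely. In a limma fit of log2(FPKM + 1), 2440 of the 11079 genes were higher with shRNA3 (22.0%) and 2273 were lower (20.5%) at a Benjamini-Hochberg adjusted p under 0.05, 42.5% in all. Most of these differences were small: the median size among the 4713 genes called was 0.32 on the log2 scale, and the median over all genes tested was 0.01. On the same scale, on which changes of low genes come out too small, 41 genes were at least 2-fold higher with shRNA3 (0.370%) and 67 were at least 2-fold lower (0.605%). The libraries of the hairpins did not overlap in 73.2% of the genes tested. Of the 4709 genes called that were neither microRNA nor small nucleolar RNA symbols, 178 were unnamed gene models, which are only counted here.

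**Figure D1:**
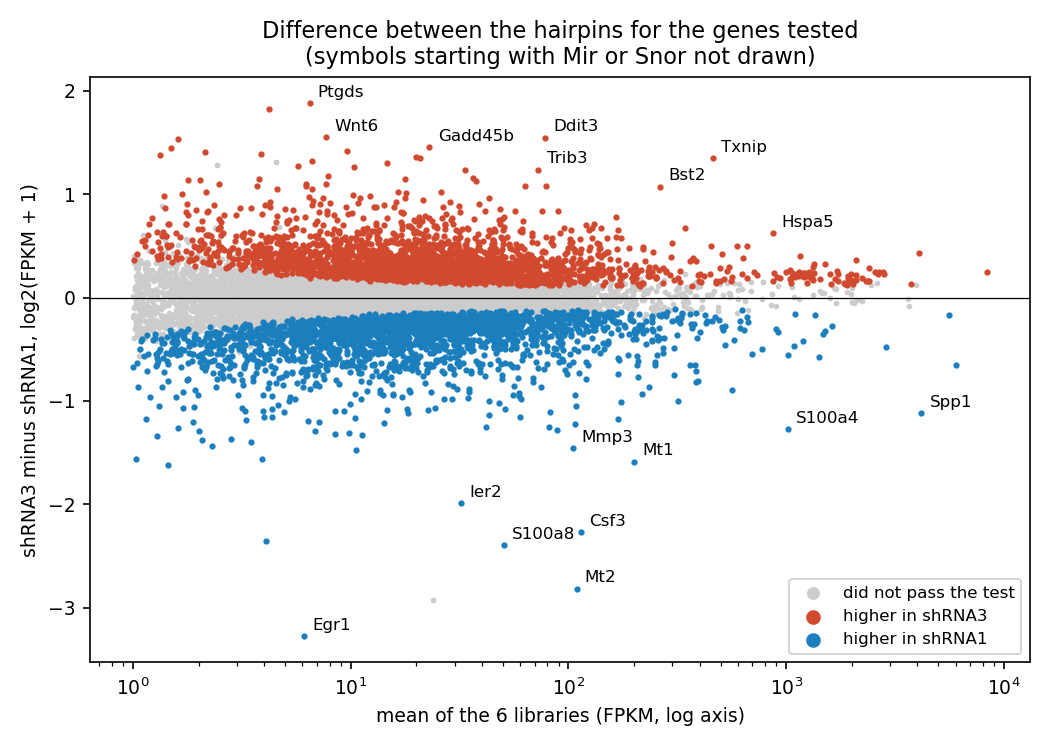
Difference between the hairpins, shRNA3 minus shRNA1 on the log2(FPKM + 1) scale, against the mean of the 6 libraries in FPKM on a log axis, 1 point per gene, red higher and blue lower with shRNA3 at an adjusted p under 0.05, grey not passing. Of the genes with a name in the plot, Egr1 at -3.27 and Mt2 at -2.82 lie lowest and Ptgds at 1.88 highest, and the abundant Spp1 lies at -1.12.

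The WT level tells which hairpin had moved. Among all genes tested, WT lay between the hairpin means in 27.1%, shRNA1 was the farther one from WT on the same side in 24.7%, and shRNA3 was the farther one in 48.2%. Among the 4713 genes called, WT lay between the hairpins in 40.1%, shRNA1 was farther in 12.8% and shRNA3 was farther in 47.0%. The farther hairpin was at least 3 times as far from WT as the other in 1217 of these 4713 genes for shRNA3 and in 319 for shRNA1. Over all 11079 genes tested these numbers were 1822 and 759. The shares by WT position were nearly the same for genes called higher with shRNA3 (1022 between, 287 with shRNA1 farther, 1131 with shRNA3 farther) and lower (870, 317 and 1086). Among the 67 genes at least 2-fold lower with shRNA3, WT lay between the hairpins in 41 (61.2%). Among the 41 genes at least 2-fold higher with shRNA3 it lay between them in 16 (39.0%). In 1023 of the 4713 genes called (21.7%) both libraries of one hairpin lay above both WT libraries and both libraries of the other lay below them. The high hairpin was shRNA3 in 557 of these genes and shRNA1 in 466. This order was counted among genes called only, not over all genes tested. Both hairpin means are set against the same WT libraries here, so their distances from WT are not independent of each other.

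**Figure D2:**
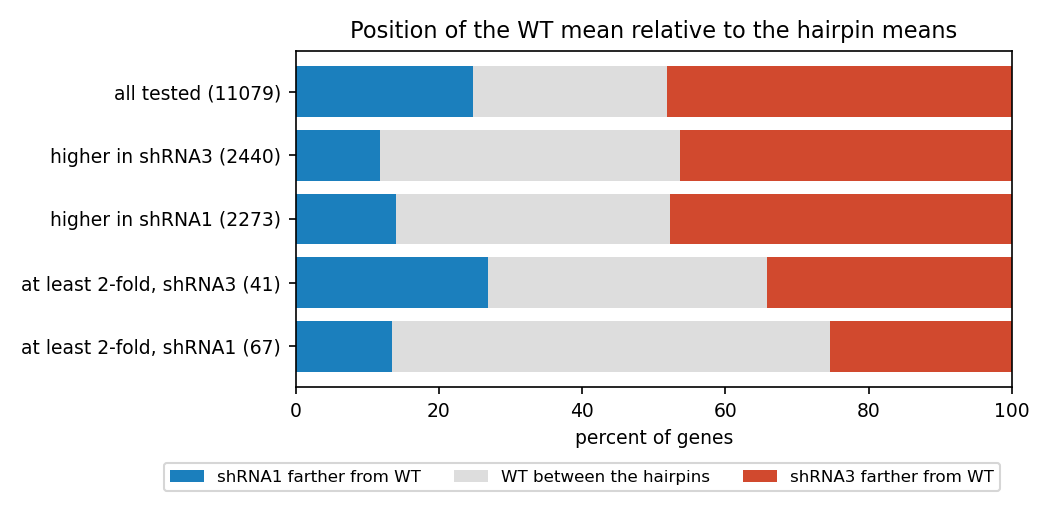
Share of genes, in percent on the x axis, for which the WT mean lay between the hairpin means (light grey), shRNA1 lay farther from WT (blue) or shRNA3 lay farther (red), with the number of genes of each set in parentheses. WT lay between the hairpins in 27.1% of the genes tested and in 41 of the 67 genes at least 2-fold higher with shRNA1. For genes at least 2-fold higher with shRNA3 it did so in 16 of 41.

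Genes of the ERK-driven early response, among them Egr1 with the largest difference of the genes called apart from microRNA symbols, stood high with shRNA1. Egr1, an immediate early transcription factor, was at 16.3 and 15.5 FPKM with shRNA1 and 0.567 and 0.954 FPKM with shRNA3, while WT had 1.77 and 1.66 FPKM. Both shRNA1 libraries were thus far above WT and both shRNA3 libraries below it. The shRNA1 mean was 20.9 times the shRNA3 mean, and the log2 difference was -3.27 ± 0.12 (SE, limma, adjusted p = 4.67e-06). Ier2, an early response gene without a settled molecular role, had 65.2 and 53.6 FPKM with shRNA1, 13.8 and 14.4 FPKM with shRNA3 and 21.6 and 23.5 FPKM in WT, a log2 difference of -1.99 ± 0.09 (adjusted p = 8.81e-06). Fos, an AP-1 subunit, had 15.9 and 16.9 FPKM with shRNA1, 5.54 and 6.46 FPKM with shRNA3 and 3.25 and 2.89 FPKM in WT, so that shRNA3 too lay above WT. Its log2 difference was -1.32 ± 0.09 (adjusted p = 4.23e-05). Areg, amphiregulin, a ligand of the EGF receptor, had 17.6 and 19.7 FPKM with shRNA1, 5.41 and 6.79 FPKM with shRNA3 and 7.62 and 6.08 FPKM in WT, 3.06 times as much with shRNA1 as with shRNA3.

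Over the whole list of ERK output genes, 30 of 31 passed the filter, 23 were lower with shRNA3 and 2 were higher, with a median difference of -0.47. That is 76.7% of the list lower, against 20.5% of all genes tested. Counts of the other lists are to be read beside the shares over all genes tested, 22.0% higher and 20.5% lower. The AP-1 genes Junb (165 and 79.4 FPKM as hairpin means, shRNA1 first, against 80.5 FPKM in WT) and Fosl1 (24.8 and 12.3 against 14.7 FPKM) were near or below WT with shRNA3 and above it with shRNA1. A second set lay near the WT level with shRNA1 and well below it with shRNA3. Dusp6, the phosphatase that inactivates ERK, had 103 and 99.1 FPKM with shRNA1, 45.2 and 47.5 FPKM with shRNA3 and 99.9 and 99.2 FPKM in WT. Ccnd1, cyclin D1, had 468 and 465 FPKM with shRNA1, 259 and 272 FPKM with shRNA3 and 452 and 455 FPKM in WT. The ETS factor Etv5 had 63.4 and 61.5 FPKM with shRNA1 and 31.6 and 32.3 FPKM with shRNA3, with WT above both at 71.2 and 74.7 FPKM. So the list was not low in one way: over its members tested, the median distance from WT was 0.20 for shRNA1 and -0.26 for shRNA3. The exceptions higher with shRNA3 were Dusp7 (0.47) and Fosl2 (0.35), and Myc (0.09), Dusp1 (0.07), Epha2 (0.03), Epha4 (-0.17) and Hbegf (-0.20) did not pass the test. Dusp6, Ccnd1, Etv5 and the exceptions were picked from the list after their values were seen.

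Egr2, the related early factor, differed in the same direction by another route. Its level was 4.99 and 4.88 FPKM with shRNA1 and 1.20 and 1.31 FPKM with shRNA3, and WT, at 4.04 and 4.37 FPKM, was close to shRNA1 (log2 difference -1.40 ± 0.09, adjusted p = 3.62e-05). Serum response factor binds the CArG box of early genes, and such a box lies before annotated starts of Egr2. The 250 bases before 1 of these starts are shown with the match in capitals, from RefSeq on GRCm38.p6, plus strand, chr10:67537619-67537868.

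Egr2: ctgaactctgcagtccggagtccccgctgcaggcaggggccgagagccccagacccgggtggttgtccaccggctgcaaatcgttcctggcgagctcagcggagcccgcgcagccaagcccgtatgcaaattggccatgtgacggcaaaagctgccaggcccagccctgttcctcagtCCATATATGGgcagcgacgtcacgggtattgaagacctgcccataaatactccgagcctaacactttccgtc

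The match lies 72 bases before the start. The CArG box was found, on both strands, in 1.63% of the 32851 promoter windows of RefSeq (250 bases before to 50 after a start). It was in 1 of the 22 windows of the ERK output list and in 7 of the 22 windows of the actin and SRF list. These windows cover 20 of the 30 tested genes of the ERK list and 17 of the 18 of the actin list. Over all, 8515 of the 11079 genes tested had a window, and the others were not searched. Among the windows of genes tested the box was in 1.28%. The windows of Fos, Areg and Junb held no such box, but sequence beyond the windows was not searched for any gene. A match is a run of letters and not evidence of binding.

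The metallothioneins, small proteins that bind zinc and copper, made the next largest gap. Mt2 (chromosome 8, 94172664 to 94173568, plus strand) was at 176 and 182 FPKM with shRNA1 and 24.7 and 24.4 FPKM with shRNA3, with WT between them at 123 and 124 FPKM. The shRNA1 mean was 7.29 times the shRNA3 mean, a log2 difference of -2.82 ± 0.04 (adjusted p = 2.98e-08). Mt1, its neighbour, was at 335 and 313 FPKM with shRNA1 and 110 and 105 FPKM with shRNA3, against 158 and 179 FPKM in WT (-1.59 ± 0.07, adjusted p = 7.58e-06). In both genes WT lay between the hairpins, nearer to shRNA1 for Mt2 and nearer to shRNA3 for Mt1. The metal response factor Mtf1 acts on such promoters through a short core. The stretch before the Mt2 start (GRCm38.p6, plus strand, chr8:94172368-94172617) holds 3 matches to the cores TGCGCNC or TGCACNC on either strand, in capitals.

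Mt2: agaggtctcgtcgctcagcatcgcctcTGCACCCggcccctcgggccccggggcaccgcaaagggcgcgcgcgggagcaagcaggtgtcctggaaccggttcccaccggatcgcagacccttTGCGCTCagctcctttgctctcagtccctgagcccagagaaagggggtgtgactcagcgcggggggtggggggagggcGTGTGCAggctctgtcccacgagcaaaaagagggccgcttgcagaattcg

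Such short cores are common: TGCGCNC was in 15.4% and TGCACNC in 12.6% of all windows, and in 27.1% and 12.4% of the windows of genes tested. The rest of the NRF2 and metal response list went both ways, 9 of its 24 tested members higher and 8 lower with shRNA3, at a median of 0.02. Genes of glutathione synthesis and oxidant defence were among the higher ones, with Gclc (the catalytic subunit of the first enzyme of glutathione synthesis) at 0.92, Gclm at 0.50 and Osgin1 at 1.01. Osgin1 had 12.1 and 11.1 FPKM with shRNA1, 23.9 and 24.9 FPKM with shRNA3 and 16.5 and 19.4 FPKM in WT. Gclc and Gclm were picked after their values were seen.

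Several of the secreted proteins for which 4T1 is known were low with shRNA3. Csf3, the granulocyte colony-stimulating factor, was at 189 and 188 FPKM with shRNA1, 38.4 and 37.9 FPKM with shRNA3 and 117 and 115 FPKM in WT (log2 difference -2.27 ± 0.04, adjusted p = 4.88e-08). S100a8, a subunit of the neutrophil protein calprotectin, was at 61.4 and 62.1 FPKM with shRNA1 and 11.1 and 10.7 FPKM with shRNA3, and WT at 71.8 and 85.4 FPKM stood above both. Its log2 difference was -2.40 ± 0.08 (adjusted p = 3.42e-06). S100a8 is also a neutrophil marker. The neutrophil list summed to 62.7 and 63.2 FPKM with shRNA1 and to 11.4 and 11.2 FPKM with shRNA3, nearly all of it S100a8, and S100a9 and 7 others of the list in the tables were below 1 FPKM. In bulk RNA fewer cells of a type and less RNA per cell cannot be told apart, and the part of other cells in this difference was not tested.

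Abundant transcripts moved too. Spp1, osteopontin, was at 5064 and 5290 FPKM with shRNA1 and 2423 and 2339 FPKM with shRNA3, against 5006 and 4956 FPKM in WT, so it had left the WT level with shRNA3 (-1.12 ± 0.04, adjusted p = 7.28e-06). Lcn2, the iron-carrier lipocalin of innate defence, was at 7177 and 7223 FPKM with shRNA1 and 4685 and 4488 FPKM with shRNA3, with WT at 6242 and 6323 FPKM. S100a4, a calcium-binding protein linked to metastasis, was at 1491 and 1536 FPKM with shRNA1 and 649 and 602 FPKM with shRNA3, with WT at 967 and 875 FPKM. For S100a4, Lcn2 and Spp1 WT lay between the hairpins, and for Spp1 it lay just below the shRNA1 level. The protease inhibitor Serpine2 (log2 difference -0.58) and the actin-binding peptide Tmsb10 (-0.55) were also lower with shRNA3. Among genes called with a difference of at least 0.5, the 6 with the highest mean were these 5 and Hspa5, the chaperone BiP, which was higher (0.62).

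Among the S100 and innate defence genes 10 of the 18 tested were lower with shRNA3 and 6 were higher. The higher ones were not S100 genes. They included Ly6a, a surface antigen that interferon induces (20.9 and 23.5 FPKM with shRNA1, 54.3 and 52.9 FPKM with shRNA3, WT at 24.2 and 26.1 FPKM), and the complement genes C3 (0.59) and Cfb (0.90). Of the NF-kB and cytokine list, 11 of 29 were higher and 8 lower, at a median of 0.09, and the chemokines split. Ccl7, a monocyte attractant, was at 13.8 and 13.7 FPKM with shRNA1 and 35.4 and 37.8 FPKM with shRNA3, with WT at 12 and 11.6 FPKM (1.35 ± 0.06, adjusted p = 7.58e-06). Cxcl1, a neutrophil attractant, was at 750 and 745 FPKM with shRNA1 and 424 and 383 FPKM with shRNA3, with WT at 540 and 535 FPKM (-0.89 ± 0.05, adjusted p = 2.38e-05). Csf1, the macrophage growth factor, was higher with shRNA3 (0.62) where Csf3 was lower. Of the STAT3 list, 14 of 30 were lower and 6 higher. Besides Fos (-1.32) and Junb (-1.04), the lower ones included the acute phase gene Saa2 (35.9 against 16.4 FPKM as hairpin means, 15.8 FPKM in WT), the cytokine Lif (-1.03) and the kinase Jak1 (-0.73), while Stat3 itself differed by 0.02 and did not pass. C3, Cfb, Csf1, Lif and Jak1 were picked after their values were seen.

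Of 8 matrix metalloproteinases tested, 3 were lower with shRNA3, beside 20.5% of all genes tested. Mmp3, stromelysin 1, was at 137 and 146 FPKM with shRNA1 and 52.7 and 49.6 FPKM with shRNA3, with WT at 125 and 120 FPKM (-1.45 ± 0.05, adjusted p = 4.67e-06). Mmp13, a collagenase, was at 5.63 and 6.71 FPKM with shRNA1 and 2.14 and 2.27 FPKM with shRNA3. Mmp10 was at 3.13 and 3.98 FPKM with shRNA1 and 1.14 and 1.21 FPKM with shRNA3, which is near its WT values of 0.923 and 1.10 FPKM. By contrast Mmp9, a gelatinase, was at 211 and 204 FPKM with shRNA1 and 205 and 211 FPKM with shRNA3 (0.00 ± 0.04, adjusted p = 0.952), with both hairpins above WT at 68.5 and 71.9 FPKM. Over the list of matrix proteases and their inhibitors, 21 of 30 passed the filter, 10 were lower with shRNA3 and 6 higher, at a median of -0.14. Timp1, an inhibitor, was lower (-0.95) and the protease Plau was higher (0.36). Mmp9, Timp1 and Plau were picked after their values were seen.

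**Figure D3:**
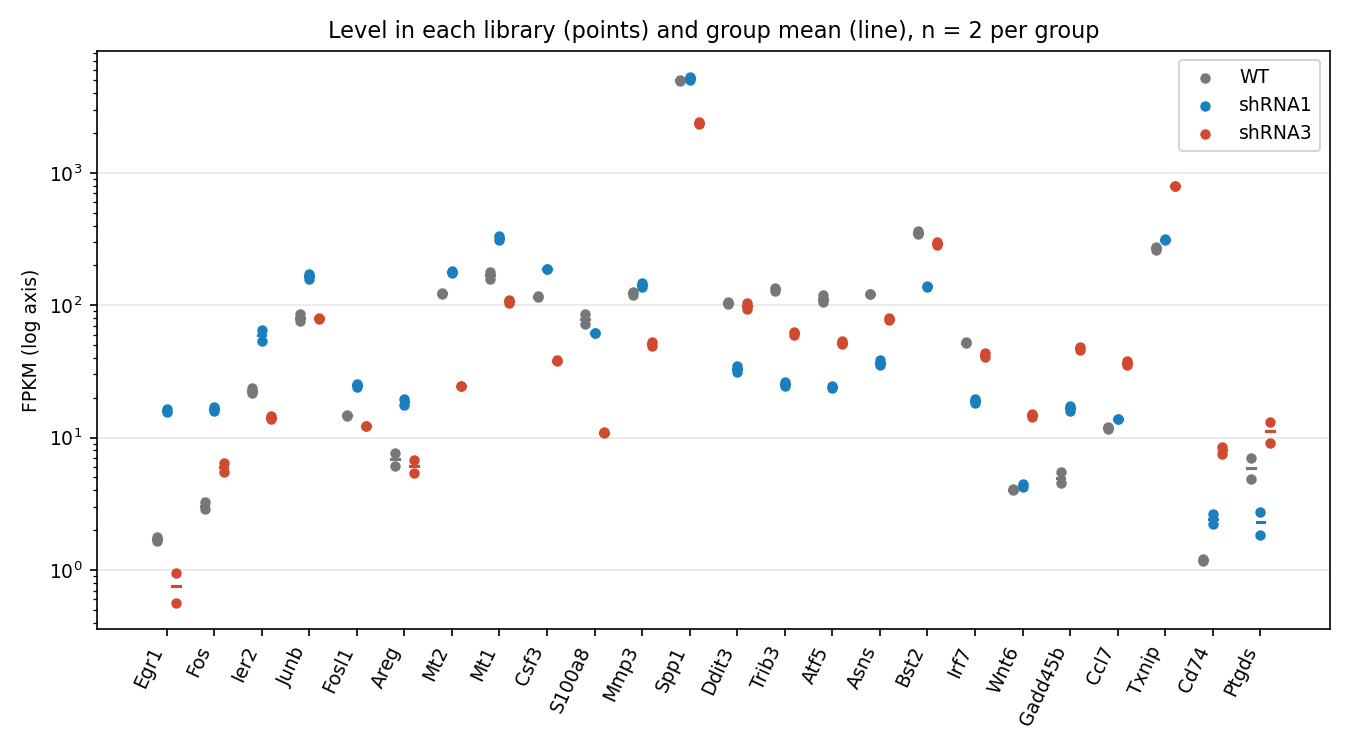
FPKM on a log axis for 24 genes, with each of the 6 libraries as a point, grey WT, blue shRNA1 and red shRNA3, and a line at each group mean (n = 2). The blue points stand above the red ones from Egr1 to Spp1 and below them from Ddit3 to Ptgds, and for Egr1, Mt2, Mt1 and Csf3 the grey points lie between.

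On the other side, the ATF4 targets of amino acid supply were less reduced with shRNA3 than with shRNA1. ATF4 is the transcription factor of the integrated stress response and raises genes of amino acid synthesis and uptake. Of its list, 37 of 42 passed the filter. Of these, 23 were higher with shRNA3 (62.2%, against 22.0% of all genes tested) and 5 lower, at a median of 0.31. The median distance from WT was -0.72 for shRNA1 and -0.51 for shRNA3, and shRNA1 was the farther hairpin in 23 of the 28 members called. Ddit3, the stress factor CHOP, was at 34.7 and 31.4 FPKM with shRNA1 and 104 and 93.3 FPKM with shRNA3, where WT had 102 and 105 FPKM, so shRNA3 was at the WT level (1.55 ± 0.07, adjusted p = 8.43e-06). Trib3, the pseudokinase named in the title of the series, was at 24.5 and 26.2 FPKM with shRNA1 and 60.0 and 62.4 FPKM with shRNA3, and both were below WT at 128 and 136 FPKM. Atf5, another factor of the response, was at 24.7 and 23.7 FPKM with shRNA1 and 53.7 and 50.8 FPKM with shRNA3, against 105 and 119 FPKM in WT. Atf4 itself was at 209 and 206 FPKM with shRNA1 and 205 and 195 FPKM with shRNA3, both below WT at 385 and 387 FPKM, and the difference of -0.05 between them did not pass (adjusted p = 0.335). The members lower with shRNA3 were Cth (-0.41), Ddit4 (-0.36), Cebpb (-0.27), the cystine transporter Slc7a11 (-0.23) and the leucine transporter Slc7a5 (-0.14). Atf4 and these 5 were picked after their values were seen.

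Asns, asparagine synthetase, is a known target of ATF4 through a short element. Its level was 35.3 and 38.4 FPKM with shRNA1, 77.3 and 80.5 FPKM with shRNA3 and 121 and 122 FPKM in WT (1.08 ± 0.05, adjusted p = 1.03e-05, picked after its values were seen). The 250 bases before its start (GRCm38.p6, minus strand, chr6:7693210-7693459) are shown with the match to TGATGNAA in capitals, 23 bases before the start.

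Asns: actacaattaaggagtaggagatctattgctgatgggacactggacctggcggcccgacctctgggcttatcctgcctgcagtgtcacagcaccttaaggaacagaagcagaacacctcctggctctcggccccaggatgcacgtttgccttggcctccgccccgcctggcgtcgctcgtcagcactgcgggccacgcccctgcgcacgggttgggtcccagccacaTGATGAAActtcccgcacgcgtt

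This element, searched on both strands, was in 10 of the 37 windows of the list (27.0%) and in 3.97% of all windows. The 37 windows of the list cover 31 of its 37 members tested. The window of Ddit3 held no match, and that of Trib3 held 1 just after the start. The element was in 2.36% of the windows of all genes higher with shRNA3 and in 2.47% of those lower, beside 2.12% of the windows of genes tested. The endoplasmic reticulum chaperones, which the unfolded protein response raises, had 12 of 25 higher and 5 lower, at a median of 0.14. Hspa5 was at 634 and 648 FPKM with shRNA1 and 994 and 982 FPKM with shRNA3, at the WT level of 999 and 964 FPKM. Herpud1, of the degradation pathway in that compartment, was at 32.3 and 31.7 FPKM with shRNA1 and 56.1 and 53.1 FPKM with shRNA3, with WT at 56.1 and 58.2 FPKM.

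Interferon response genes had the highest median among the 29 lists. Of 43 members tested, out of 44, 35 were higher with shRNA3, 1 was lower (Samd9l, -0.37) and 7 did not pass, at a median of 0.41. The share higher was 81.4%, against 22.0% of all genes tested. The median distance from WT was -0.35 for shRNA1 and -0.00 for shRNA3. Bst2, tetherin, a membrane protein that holds virus particles on the cell, was at 140 and 138 FPKM with shRNA1 and 302 and 285 FPKM with shRNA3, with WT at 344 and 364 FPKM (1.07 ± 0.05, adjusted p = 8.43e-06, picked after its values were seen). Irf7, the factor that amplifies type I interferon, was at 19.6 and 18.1 FPKM with shRNA1 and 43.9 and 40.8 FPKM with shRNA3, with WT at 51.4 and 53 FPKM. Both were far below WT with shRNA1 and somewhat below it with shRNA3. Ifi44 was at 3.19 and 4.36 FPKM with shRNA1 and 9.45 and 9.92 FPKM with shRNA3, close to WT at 9.98 and 10.1 FPKM. Ifi27l2a had 4.89 and 3.66 FPKM with shRNA1 and 10.8 and 13.1 FPKM with shRNA3, and WT at 30.6 and 25.2 FPKM stood above both. Oas3, a synthase of the 2-5A signal (chromosome 5, 120753098 to 120777661, minus strand), departed the other way: its level was 3.38 and 3.32 FPKM with shRNA1, 10.02 and 9.10 FPKM with shRNA3 and 3.94 and 4.41 FPKM in WT, so the shRNA3 libraries stood above WT (1.28 ± 0.08, adjusted p = 3.96e-05). Of the 36 members called, shRNA1 was the farther hairpin in 17, shRNA3 in 5, and WT lay between in 14. Irf7 and Samd9l were picked after their values were seen.

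The interferon-stimulated response element was searched on both strands as a pair of GAAA runs with any 2 bases between them, and the stretches before the starts of Bst2 (GRCm38.p6, minus strand, chr8:71537473-71537722, with a pair of overlapping matches at 130 and 124 bases before the start) and Oas3 (minus strand, chr5:120777660-120777909, a match at 75 bases) show it in capitals.

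Bst2: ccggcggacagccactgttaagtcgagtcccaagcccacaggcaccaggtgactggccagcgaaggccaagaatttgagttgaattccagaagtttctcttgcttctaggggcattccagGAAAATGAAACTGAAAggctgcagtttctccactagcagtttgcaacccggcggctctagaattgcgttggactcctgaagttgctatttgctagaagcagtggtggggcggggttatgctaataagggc

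Oas3: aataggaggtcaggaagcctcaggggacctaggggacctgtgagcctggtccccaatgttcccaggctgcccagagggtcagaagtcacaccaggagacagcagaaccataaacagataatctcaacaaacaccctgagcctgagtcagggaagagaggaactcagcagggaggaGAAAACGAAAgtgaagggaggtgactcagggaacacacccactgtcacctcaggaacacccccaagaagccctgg

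The list had 40 windows, which cover 32 of its 43 members tested, and the element was in 18 of them (45.0%). It was in 3.44% of all windows and 2.95% of those of genes tested. For genes higher with shRNA3 it was in 4.15% of the windows, and for genes lower in 2.43%. The windows of Irf7 and Ifi44 held no match.

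Genes of MHC class I presentation, which display peptides to T cells, were mostly higher with shRNA3. Of the 23 tested, 17 were higher (73.9%, against 22.0% of all genes tested) and 2 lower, at a median of 0.36. The median distance from WT was -0.01 for shRNA1 and 0.38 for shRNA3. B2m, the light chain, was at 1837 and 1902 FPKM with shRNA1, 2518 and 2293 FPKM with shRNA3 and 2013 and 2000 FPKM in WT. The peptide transporter Tap1 was at 17.3 and 16.4 FPKM with shRNA1, 26.4 and 27.3 FPKM with shRNA3 and 15.3 and 16.4 FPKM in WT. The immunoproteasome subunit Psmb9 was at 12.8 and 13.1 FPKM with shRNA1 and 20.1 and 21.4 FPKM with shRNA3, both above WT at 6.08 and 7.61 FPKM. H2-T23 was at 103 and 92.8 FPKM with shRNA1 and 161 and 153 FPKM with shRNA3, with WT at 129 and 135 FPKM between them. H2 genes are near copies of each other, so reads could be split between them, and H2-T9 (3.6 and 8.89 FPKM with shRNA1, 19.9 and 14.5 FPKM with shRNA3) is uncertain for this reason. Its call ended in 2 of 17 alternative settings, with an adjusted p of up to 0.0701. Cd74, the invariant chain of MHC class II, was at 2.23 and 2.65 FPKM with shRNA1 and 8.43 and 7.57 FPKM with shRNA3, against 1.21 and 1.16 FPKM in WT. B2m was picked after its values were seen.

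Sterol synthesis had the lowest median among the 29 lists, -0.59. Of 24 members tested, out of 25, 21 were lower with shRNA3 and 1 was higher. The share lower was 87.5%, against 20.5% of all genes tested. The list stood above WT with shRNA1, at a median distance of 0.62, and nearer to it with shRNA3, at 0.18, and shRNA1 was the farther hairpin in 15 of the 22 members called. Idi1, which makes the building block of isoprenoids, was at 44.5 and 46.2 FPKM with shRNA1 and 22.9 and 22.0 FPKM with shRNA3, with WT at 21.5 and 18.1 FPKM (-0.98 ± 0.08, adjusted p = 8.34e-05). Nsdhl, of the last steps to cholesterol, was at 19.4 and 20.4 FPKM with shRNA1 and 9.62 and 10.5 FPKM with shRNA3, with WT at 10.8 and 10.7 FPKM. The regulator Srebf2 did not differ past the threshold (-0.04, adjusted p = 0.622) and was at 71.9 and 70.1 FPKM as hairpin means. Of the fatty acid genes 9 of 19 were lower and 4 higher, led by the desaturase Fads2 (69.4 and 68.2 FPKM with shRNA1, 41.1 and 44.6 FPKM with shRNA3, WT at 55.1 and 54.5 FPKM). Hmgcs1, which makes the precursor of mevalonate, was at 63.0 and 62.2 FPKM with shRNA1 and 39.3 and 40.4 FPKM with shRNA3, both above WT at 30.3 and 27.7 FPKM. Before its start (GRCm38.p6, plus strand, chr13:119690101-119690350) a match to the sterol response core TCACNCCAC, in capitals, lies at 137 bases.

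Hmgcs1: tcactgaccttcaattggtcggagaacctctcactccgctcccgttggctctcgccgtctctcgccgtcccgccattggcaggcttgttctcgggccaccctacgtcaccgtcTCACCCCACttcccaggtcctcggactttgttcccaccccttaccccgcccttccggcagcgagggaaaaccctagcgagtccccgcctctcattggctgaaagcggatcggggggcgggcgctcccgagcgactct

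This core, searched on both strands, was in 1 of the 20 windows of the list, which cover 17 of its 24 members tested. It was in 1.24% of all windows and 1.09% of those of genes tested, and the windows of Idi1 and Nsdhl held none. Srebf2 and Hmgcs1 were picked after their values were seen.

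Glycolysis and hypoxia genes were above WT with both hairpins, at median distances of 0.94 for shRNA1 and 0.75 for shRNA3, and the difference between the hairpins was smaller. Of the 34 tested, 17 were lower with shRNA3 and 7 higher, at a median of -0.13. The glycolytic enzyme Eno1 was at 401 and 438 FPKM with shRNA1 and 272 and 228 FPKM with shRNA3, which overlapped WT at 214 and 282 FPKM. Eno1 has pseudogene copies, so its value is uncertain. Ankrd37, a target of the hypoxia-inducible factor, was at 21.8 and 22.7 FPKM with shRNA1 and 11.9 and 13.7 FPKM with shRNA3, both above WT at 6.63 and 7.25 FPKM. Pfkfb3, which makes the activator of phosphofructokinase, went the other way, with 35.7 and 35.3 FPKM with shRNA1, 69.3 and 70.6 FPKM with shRNA3 and 23.7 and 24.3 FPKM in WT (0.96 ± 0.04, adjusted p = 9.23e-06). Of the respiratory chain genes 11 of 32 were lower and 4 higher, led by cytochrome c, Cycs (19.4 and 20.3 FPKM with shRNA1, 13.2 and 11.7 FPKM with shRNA3), and by Ndufa1 (-0.61) and Ndufb8 (-0.47) of complex I.

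**Figure D4:**
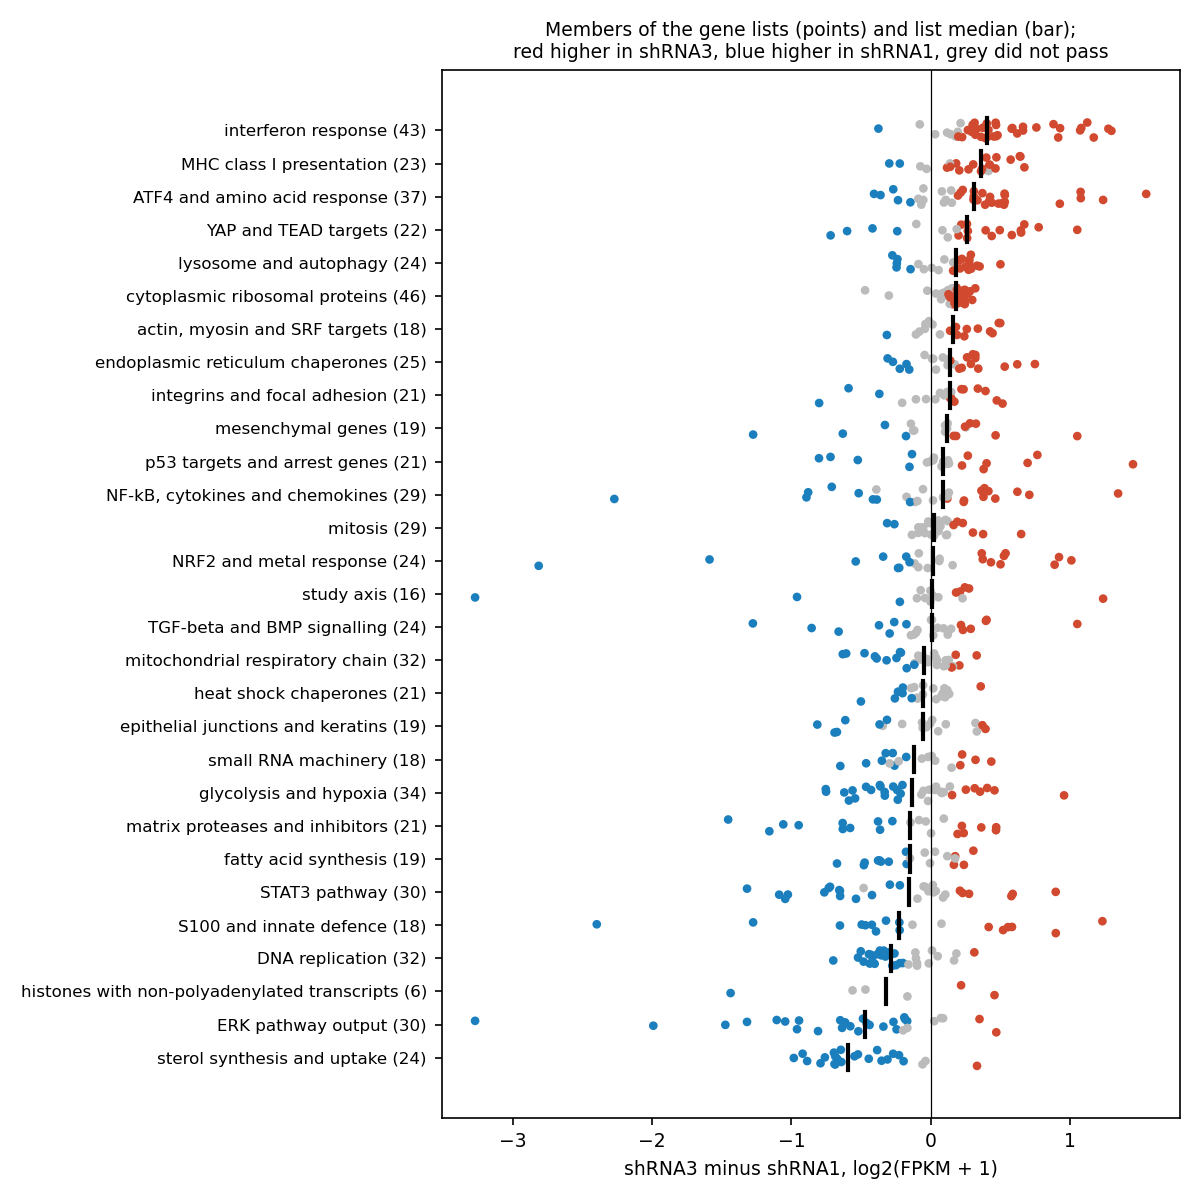
Difference between the hairpins on the log2(FPKM + 1) scale for each tested member of 29 gene lists, red higher and blue lower with shRNA3 at an adjusted p under 0.05, grey not passing, with a bar at the list median and the number tested in parentheses. The lists are ordered by median, from interferon response at 0.41 to sterol synthesis at -0.59, and the lowest point, Egr1 among the ERK output genes, lies at -3.27.

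Targets of YAP and TEAD, the factors that respond to cell shape and density, were higher with shRNA3 in 14 of 22 members tested and lower in 4, at a median of 0.26. Cyr61 was at 167 and 162 FPKM with shRNA1 and 277 and 288 FPKM with shRNA3, both above WT at 47.6 and 48.5 FPKM (0.78 ± 0.04, adjusted p = 1.78e-05). Tgfb2, a transforming growth factor, was at 4.80 and 5.22 FPKM with shRNA1, 11.8 and 11.2 FPKM with shRNA3 and 2.96 and 3.79 FPKM in WT. The ectonucleotidase Nt5e was lower (47.0 and 46.2 FPKM with shRNA1, 28.4 and 27.5 FPKM with shRNA3), as was Yap1 itself (-0.42, picked after its value was seen). The actin and SRF list had 10 of 18 higher and 1 lower, among them Tpm1, tropomyosin (588 and 594 FPKM with shRNA1, 856 and 819 FPKM with shRNA3), Cnn2 (0.49) and Srf (18.3 and 19.6 FPKM with shRNA1, 26.3 and 26.0 FPKM with shRNA3, WT at 16.1 and 16.7 FPKM). These differences had the opposite sign to those of the early genes Egr1, Egr2 and Fos. Of the integrins and adhesion genes 10 of 21 were higher and 3 lower: Itgav was higher (25.5 and 26.2 FPKM with shRNA1, 35.8 and 39.1 FPKM with shRNA3), and its partner Itgb3 (-0.59) and the collagen receptor chain Itga2 (-0.80) were lower.

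TGF-beta and BMP genes showed no common direction, with 6 of 24 higher, 7 lower and a median of 0.01 that changes sign when every library is given the same total or is quantile normalized. Of the 4 Id genes, which BMP signals raise, 2 were lower, while Id2 (0.02) and Id4 (-0.43, limma, adjusted p = 0.0527) did not pass, and the BMP target Smad6 was higher (0.40). These last 3 were picked after their values were seen. Id1, an inhibitor of helix-loop-helix factors, was at 121 and 103 FPKM with shRNA1, 42.4 and 48.6 FPKM with shRNA3 and 102 and 113 FPKM in WT (-1.28 ± 0.09, adjusted p = 6.07e-05). Id3 was at 75.5 and 66.0 FPKM with shRNA1, 41.4 and 36.0 FPKM with shRNA3 and 54.7 and 64.6 FPKM in WT. Id1 was thus at the WT level with shRNA1 and low with shRNA3. Of the mesenchymal genes 7 of 19 were higher and 4 lower, and 15 of the 34 were below the filter. Keratins were lower with shRNA3: Krt8 was at 481 and 451 FPKM with shRNA1 and 266 and 263 FPKM with shRNA3 (WT 421 and 435 FPKM), and Krt7 (-0.67) and Krt80 (-0.69) differed likewise. In all, 6 of 19 epithelial genes tested were lower and 2 higher, and Cdh1, E-cadherin, differed by 0.05 and did not pass (picked after its value was seen).

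DNA replication genes were lower with shRNA3 in 21 of 32 members tested (65.6%, against 20.5% of all genes tested). The polymerase Pold1 (0.31) was the 1 higher member, and the list median was -0.28. The median distance from WT was 0.03 for shRNA1 and -0.19 for shRNA3. Mcm6, of the replicative helicase, was at 102 and 102 FPKM with shRNA1, 70.3 and 72.7 FPKM with shRNA3 and 91.4 and 87.5 FPKM in WT. Tk1, thymidine kinase, was at 95.9 and 93.0 FPKM with shRNA1 and 67.3 and 63.8 FPKM with shRNA3, with WT at 78.6 and 81.0 FPKM. Ccne2, cyclin E2, was at 2.38 and 2.97 FPKM with shRNA1, 1.30 and 1.21 FPKM with shRNA3 and 2.63 and 2.33 FPKM in WT. Mitosis genes did not go with them: 21 of 29 did not pass, 6 were higher and 2 lower, at a median of 0.02. The share higher, 20.7%, was near the 22.0% of all genes tested. The proliferation marker Mki67 differed by 0.12 and did not pass. Cdc25b, a phosphatase that starts mitosis, was higher with shRNA3 (40.3 and 40.5 FPKM against 65.2 and 62.9 FPKM) and the kinesin Kif20a was lower (-0.31). Of the p53 and arrest genes 7 of 21 were higher (33.3%) and 5 lower (23.8%), beside 22.0% and 20.5% of all genes tested. Gadd45b, a stress sensor, was at 15.9 and 17.3 FPKM with shRNA1 and 48.3 and 46.2 FPKM with shRNA3, both above WT at 4.52 and 5.46 FPKM (1.45 ± 0.08, adjusted p = 2.26e-05). The death receptor Fas was at 24.6 and 22.7 FPKM with shRNA1 and 42.8 and 39.0 FPKM with shRNA3, with WT at 23 FPKM in both libraries, while the antiproliferative Btg2 (-0.80) and the cell cycle inhibitor Cdkn1a (-0.72) were lower. Cdkn1a, Pold1 and Mki67 were picked after their values were seen.

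Cytoplasmic ribosomal proteins differed by small amounts, with 35 of 46 higher with shRNA3, 11 not passing, and a median of 0.18. Under quantile normalization 20 of the 46 were higher, at a median of 0.13. Rpl13 was at 1260 and 1220 FPKM with shRNA1, 1579 and 1519 FPKM with shRNA3 and 1208 and 1258 FPKM in WT (0.32 ± 0.04, adjusted p = 0.000901). Ribosomal proteins have many pseudogene copies, so these values are uncertain. Of the lysosome and autophagy genes 13 of 24 were higher and 5 lower, and the receptor Sqstm1 was at 460 and 437 FPKM with shRNA1, 638 and 633 FPKM with shRNA3 and 691 and 710 FPKM in WT. Heat shock chaperones mostly did not pass (14 of 21), 6 were lower and 1, the mitochondrial Hspa9 (0.36), higher. Of the proteins that make and use small RNAs, on which hairpins depend, 7 of 18 were lower (38.9%) and 4 higher (22.2%). Over all genes tested these shares were 20.5% and 22.0%. Dgcr8, the partner of Drosha, was at 11.1 and 11.2 FPKM with shRNA1, 6.59 and 6.95 FPKM with shRNA3 and 12.3 and 11.4 FPKM in WT, while Ago2, the cleaving Argonaute, was higher by 0.21 and Dicer1 (-0.23) did not pass, both picked after their values were seen.

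**Figure D5:**
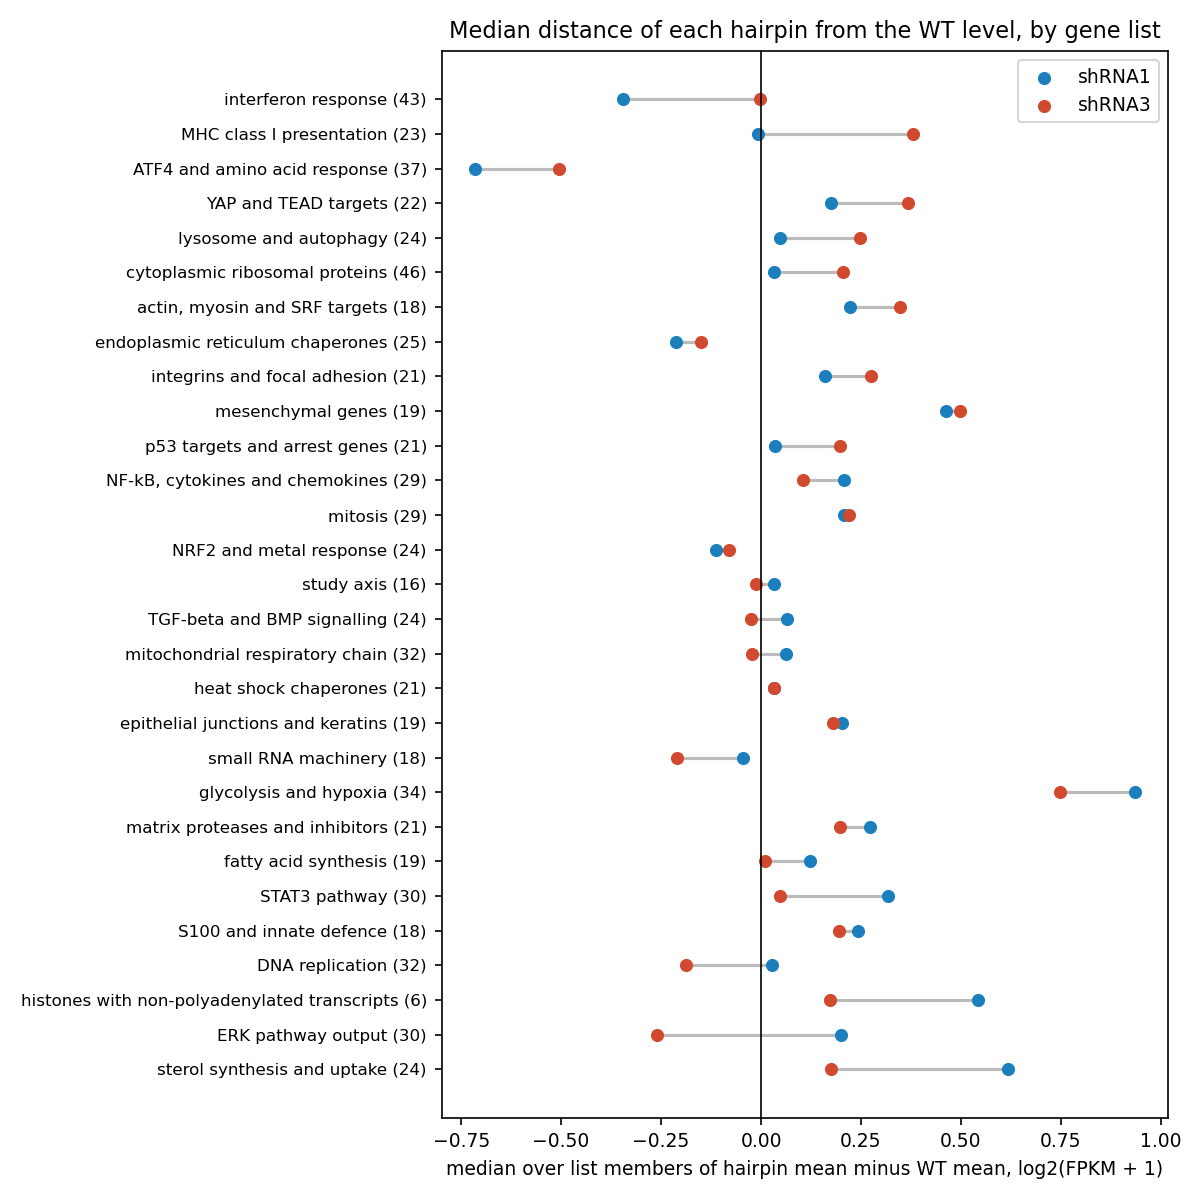
Median over the tested members of each list of the hairpin mean minus the WT mean, on the log2(FPKM + 1) scale, blue shRNA1 and red shRNA3, with 0 as the WT level and the number tested in parentheses. Sterol synthesis lies at 0.62 with shRNA1 and 0.18 with shRNA3, interferon response at -0.35 and -0.00, and ERK output lies on opposite sides of WT, at 0.20 and -0.26.

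The remaining genes with the largest differences were mostly near WT with shRNA1 and high with shRNA3. Wnt6, a secreted signalling protein, was at 4.47 and 4.21 FPKM with shRNA1, 14.4 and 15.0 FPKM with shRNA3 and 4.01 and 4.09 FPKM in WT (1.56 ± 0.07, adjusted p = 8.81e-06). Mef2b, a MADS-box factor, was at 0.518 and 0.686 FPKM with shRNA1 and 3.46 and 3.83 FPKM with shRNA3, with WT at 0.438 and 0.719 FPKM. Atp1b2, a subunit of the sodium pump, was at 0.725 and 0.563 FPKM with shRNA1 and 3.44 and 3.5 FPKM with shRNA3. The same held for Aldh1a1, a retinaldehyde dehydrogenase (0.636 and 0.387 FPKM against 3.12 and 2.74 FPKM), and for Ifitm1 (1.49 and 0.721 FPKM against 5.18 and 3.94 FPKM). Apart from Wnt6, these genes were under 1 FPKM in both WT libraries. Camk2n2, an inhibitor of a calmodulin-dependent kinase, was the reverse: its level was 9.38 and 9.15 FPKM with shRNA1 and 26.2 and 24.5 FPKM with shRNA3, at the WT level of 24.6 and 26.1 FPKM. Ptgds, prostaglandin D synthase, was at 1.85 and 2.74 FPKM with shRNA1 and 13.2 and 9.12 FPKM with shRNA3, with WT at 4.85 and 7.0 FPKM between them (1.88 ± 0.21, adjusted p = 0.00037).

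Among the lower ones Stfa3, a cystatin-like protease inhibitor, was at 3.90 and 3.20 FPKM with shRNA1, 0.293 and 0.690 FPKM with shRNA3 and 0 and 0.625 FPKM in WT. Tmem51, a membrane protein, was at 7.35 and 5.84 FPKM with shRNA1, 1.67 and 1.44 FPKM with shRNA3 and 3.6 and 3.49 FPKM in WT. A pair of the selected genes had unequal libraries. Defb25, a defensin, was at 1.54 and 1.68 FPKM with shRNA1, 10.4 and 6.53 FPKM with shRNA3 and 4.38 and 0.739 FPKM in WT, and its call ended in 4 of 16 settings (adjusted p up to 0.0842). The histone gene Hist1h4d, 1 of many near-identical copies, was at 2.50 and 5.02 FPKM with shRNA1 and 1.88 and 0 FPKM with shRNA3, and its call ended in 8 of 16 settings (adjusted p up to 0.274).

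The route named in the series title, from IL-6 and Arid5a over AU021063 to Trib3 and the Mek and Erk kinases, differed between the hairpins in 8 of the 16 genes tested out of 18, beside 42.5% of all genes tested. Of these, 5 were higher with shRNA3 and 3 lower. Apart from Trib3 (1.24), Egr1 (-3.27) and Fosl1 (-0.96), the differences called were small, among them the receptor chains Il6st (81.8 and 83.5 FPKM with shRNA1, 97.5 and 103 FPKM with shRNA3) and Il6ra (-0.22), the kinase Mapk3 (208 and 197 FPKM with shRNA1, 238 and 242 FPKM with shRNA3), and the ubiquitin ligase Rfwd2, also called COP1 (0.21). The call of Il6ra ended in 4 and that of Rfwd2 in 3 of 17 settings. Arid5a was at 12.2 and 10.6 FPKM with shRNA1 and 10.2 and 10.9 FPKM with shRNA3 and did not pass (-0.10, adjusted p = 0.355). Stat3 (0.02), Map2k1 (-0.04), Map2k2 (-0.07), Araf (0.06), Akt1 (-0.00) and Braf (0.23, adjusted p = 0.0520) did not pass either. Transcripts of the kinases named here thus differed by at most 0.25 on the log2 scale, whereas the ERK output genes differed by a median of -0.47, and kinase activity was not measured here. Il6, below the filter, rested on 23 and 16 fragments with shRNA1 and 8 and 15 with shRNA3, against 6 and 3 in WT. Its rate with shRNA3 was 55.0% of that with shRNA1 (95% exact binomial interval 31.4% to 94.4%, exact p = 0.0222, counting error only), and over libraries the exact permutation p was 0.333, the smallest possible.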

How the data were processed

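Poly(A) RNA of 6 libraries of 4T1 cells, 2 each of WT, shRNA1 and shRNA3, was sequenced after a stranded library kit, per the labels' protocols. The authors deposited 1 table of FPKM values per library. The unit is inferred from the values and from the tools in the submitters' processing notes, which name TopHat2 2.0.13, Bowtie2 2.2.3, SAMtools 0.1.19, Cufflinks 2.2.1 and mm10 without giving their roles. The gene annotation used and whether strand was used in counting are both not given in the sources used here, and FPKM of overlapping or near-identical genes can be shared between them.

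Of the 24346 symbols 23931 (98.3%) were matched to 1 gene of GENCODE release M21 for coordinates. Groups came from the labels. Genes whose mean reached 1 FPKM were fitted as log2(FPKM + 1) with limma 3.58.1 in R 4.3.3, with an intensity trend and 3 group means over the 6 libraries, and tested two-sided for shRNA3 minus shRNA1 with Benjamini-Hochberg adjustment over 11079 genes at 0.05. The fit was tested on simulated data. Fragments of low genes were read from the smallest step of the FPKM values. Other steps used SciPy 1.17.1, NumPy 2.4.6 and pandas 2.3.3 under Python 3.11.15, and figures matplotlib 3.10.9. Promoter stretches are those of RefSeq on GRCm38.p6.

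The members of the comparison and the gene lists were chosen with earlier results of these data known. Named were the 12 genes with the largest difference in each direction among those called without overlap, the 4 largest for each position of WT, the 6 of highest mean with a difference of at least 0.5, the genes of the series title's route and, per list, at most 3 called members with the largest difference. Symbols starting with Mir or Snor and models without a given name were left out, and other genes are marked as picked after their values were seen. In all 17 alternatives were tried: other pseudocounts, filters, scalings and fits, a replicate block, and each library left out in turn. A few genes that the rule names are not reported here.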

Additional observations from a re-analysis of the deposited data

Results flagged for a closer look

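In 42 of the 112 genes named by rule, the hairpins lay on opposite sides of WT: both libraries of one hairpin lay above both WT libraries and both libraries of the other lay below them. Over all genes called this order held in 1023, or 21.7%, with shRNA3 the high hairpin in 557 and shRNA1 in 466. The rule picked genes for large differences and partly for a WT level between the hairpins. The share among the named genes therefore follows in part from the choice. The values that follow are log2 differences, shRNA3 minus shRNA1, on the log2(FPKM + 1) scale, each past the limma threshold. That threshold concerns the hairpins only. Departures from WT were not tested, and both are measured from the same WT libraries. Some were small, such as those of Spp1 (0.06) and Ero1lb (-0.07) with shRNA1, and others large, such as that of Egr1 with shRNA1 (2.64).

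In 34 of the 42 genes shRNA1 was the high hairpin. Among regulators and growth factors these were Egr1 (-3.27), Ier2 (-1.99), Egr2 (-1.40), Fosl1 (-0.96), Id3 (-0.85) and the interleukin receptor Il6ra (-0.22). Among metal-binding, secreted and matrix proteins they were Mt2 (-2.82), Mt1 (-1.59), Csf3 (-2.27), Mmp3 (-1.45), Mmp13 (-1.16), S100a4 (-1.27), Spp1 (-1.12), Cxcl1 (-0.89) and Lcn2 (-0.65). Lipid genes among them were Nsdhl (-0.92), Fads2 (-0.67), Acsl4 (-0.48) and Elovl6 (-0.47). The keratins Krt8 (-0.81), Krt80 (-0.69) and Krt7 (-0.67), the integrins Itga2 (-0.80) and Itgb3 (-0.59), and the surface and cytoskeletal genes Tmem51 (-1.57), Nt5e (-0.72) and Tmsb10 (-0.55) had the same order. So did Ndufa1 (-0.61) and Ndufb8 (-0.47) of the respiratory chain, Tk1 (-0.52), Mcm6 (-0.50) and Kif20a (-0.31) of the cell cycle, and the chaperone Hsph1 (-0.50).

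In the remaining 8 genes shRNA3 was the high hairpin: Ptgds (1.88), Oas3 (1.28), Ly6a (1.23), Osgin1 (1.01), H2-T23 (0.67), Cdc25b (0.65), Ero1lb (0.53) and Itgav (0.52). The cause of these differences was not tested.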

How the results depend on the processing

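Over 17 alternatives the named genes gave 1855 values with the same direction and the same side of the threshold, 30 that lost the call, 3 that gained it and none that changed direction. The 2440 genes higher and 2273 lower with shRNA3 ranged from 2171 to 2509 and from 1950 to 2355 under the settings that kept all libraries. Giving every library the same total left 48.0% of the calls higher, against 51.8%. The number of genes at least 2-fold apart, 108, depended on how low values were treated, with 194 at a pseudocount of 0.1 and 70 among genes averaging 5 FPKM or more. Leaving out 1 hairpin library gave 1675 to 1792 genes higher and 1547 to 1734 lower, where the lone library is assumed to vary like the other groups. AU021063 with shRNA3, 48.5% of its level with shRNA1, ranged from 0 to 97.1% with 1 hairpin library left out, where it rests on 9 fragments with shRNA1 and 5 with shRNA3. Under quantile normalization 20 ribosomal proteins were higher, against 35. The medians of the TGF-beta and BMP list and of the route of the series title changed sign under the same total and under quantile normalization. With the replicate number as a block, 2209 genes were higher and 2099 lower, 4253 of the 4713 calls were kept, and 108 genes were 2-fold apart. The numbers are shared labels only: deviations of same-numbered libraries correlated by 0.199 between the hairpins, 0.0103 between WT and shRNA1 and -0.0719 between WT and shRNA3.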

Other observations

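Some genes of RNA processing were lower with shRNA3. The families and genes given here were chosen after their values were seen. Of 8 RNA helicases and related RNA-binding proteins 5 were lower and 1, Taf15 (0.16), was higher, while Nono (0.01) was among those that did not pass. Sfpq, a paraspeckle protein, was at 68.3 and 70.3 FPKM with shRNA1, 32.0 and 29.4 FPKM with shRNA3 and 80.9 and 79.0 FPKM in WT. The helicase Dhx9 was at 50.9 and 52.7 FPKM with shRNA1, 23.6 and 22.5 FPKM with shRNA3 and 56.7 and 53.6 FPKM in WT. For both genes, the shRNA3 libraries stood far below both other groups. Of the SR splicing factors 7 of 10 were lower and 1 higher, at a median of -0.27, and of the hnRNP genes 12 of 20 were lower and 1 higher, at the same median, beside 20.5% of all genes tested lower and 22.0% higher. Srsf4 (0.33) and Hnrnpc (0.32) were the higher ones. Srsf2 was at 89.4 and 87.5 FPKM with shRNA1, 48.4 and 48.0 FPKM with shRNA3 and 88.7 and 88.9 FPKM in WT.

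Genes of the circadian clock and its output were higher with shRNA3 in 9 of 15 and lower in 1, beside 22.0% and 20.5% of all genes tested. Their median was 0.46, and Clock (0.05) and Arntl (-0.02) were among those that did not pass. Dbp, a clock-controlled factor, was at 7.28 and 6.15 FPKM with shRNA1, 17.3 and 17.7 FPKM with shRNA3 and 6.67 and 7.29 FPKM in WT. The nuclear receptor Nr1d1 was at 17.2 and 15.5 FPKM with shRNA1, 32.3 and 32.6 FPKM with shRNA3 and 15.1 and 16.6 FPKM in WT. Both were at the WT level with shRNA1. Txnip, the thioredoxin-interacting protein that restrains glucose uptake, was at 310 and 315 FPKM with shRNA1, 799 and 794 FPKM with shRNA3 and 276 and 262 FPKM in WT. Its relative Arrdc4 differed in the same direction (0.97) and Arrdc3 in the opposite one (-0.69).

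Calls were not even over the genome. The share of genes higher with shRNA3 was 12.8% on chromosome X and 27.9% on chromosome 17, against 22.0% over all. It was 17.5% in the fifth of genes with the lowest GC content of their transcripts and 25.6% in the fifth with the highest. The share lower was 23.8% in the fifth with the shortest transcripts and 15.8% in the fifth with the longest.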
